A study of Homo sapiens with 8 samples.

Results

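The HOX cluster genes are the 39 protein-coding homeobox genes that lie in the HOXA, HOXB, HOXC and HOXD clusters. They were chosen by symbol alone, as every coding gene of the 4 clusters, and all 39 were found among the 54261 genes of the count table: 11 in HOXA, 10 in HOXB, 9 in HOXC and 9 in HOXD. In GRCh37 the HOXA genes lie on chromosome 7 on the minus strand, while the HOXB genes span chr17:46605888-46806112 on the minus strand, the HOXC genes chr12:54332615-54449814 on the plus strand and the HOXD genes chr2:176957449-177055635 on the plus strand. HOX proteins are transcription factors that bind DNA through a homeodomain, often together with cofactors of the PBX and MEIS families, and give cells their position along the body axis. The genes of a cluster lie in the order in which they are used along that axis, so that low paralog numbers mark anterior and high numbers posterior positions, and the open or closed chromatin of a whole stretch of a cluster is kept through cell divisions. In the gut, HOX genes and the caudal-type factor CDX2 are known for the identity of the hindgut, and their levels differ between segments of the intestine. Members are called anterior (paralogs 1 to 3, 8 genes), central (4 to 8, 15 genes) or posterior (9 to 13, 16 genes).

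Total RNA was sequenced from 5 human cell lines after removal of ribosomal RNA. NCM460 and HIEC6 were labelled as normal intestinal epithelial lines and received no treatment, with 1 library each. The lines from colorectal cancer (CRC) were DLD1, HCT116 and HCT8, each with 1 untreated library and 1 under hypoxia, whose oxygen level and duration the sources used here do not give. All 8 libraries came from cells at passage 5 grown in DMEM with 10% serum, so the replicates of a group were different lines, and no line had a second library of the same treatment.

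Total counts lay between 45519306 and 57374239, and levels are given as CPM, the count over the total count of its library on a scale of 1e6, on which 1 count was worth 0.0174 to 0.0220 CPM. A member was called on at 1 CPM or more, and 3 counts were taken as the floor, which covers counting error only. Among the 10 epithelial markers, EPCAM stood at 0.176 CPM, KRT19 at 0.987 CPM and CDX2 at 0.0529 CPM in HIEC6, where VIM reached 1223 CPM; KRT8 stood there at 4290 CPM. Over 54261 genes the profile of NCM460 correlated at r = 0.994 with that of untreated HCT116 and at 0.924 with that of HIEC6 (log2(CPM + 1)), while the 2 HCT116 libraries correlated at 0.980, so NCM460 was closer to untreated HCT116 than HCT116 under hypoxia was. Results that use NCM460 as a normal line rest on its label. No untreated CRC library shares a code in its description with a hypoxia library, so what the codes stand for and the treatment cannot be told apart. RING1, which cells use widely, stood at 0 counts in all 8 libraries, so a count of 0 in this table does not by itself show that a gene is silent.

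In untreated HCT8, HOXA6, HOXA7, HOXA9 and HOXA11 had 1 to 3 counts each, and the 250 bases before the start of 4 genes of the stretch from HOXA7 to HOXA13 are shown to place these genes. In the untreated lines, HOXA7 and HOXA9 had at most 6 counts in HIEC6 and in HCT8, whereas HOXA10 and HOXA13 were lowest in HCT8, at 135 and 14 counts, with at least 348 counts in every other line. The sequences are those of RefSeq on GRCh38.p14, read 5′ to 3′ on the gene's strand, and capitals mark matches on either strand to TTTATNG, a motif of CDX and posterior HOX proteins, or to CCAAT, the CCAAT box. For HOXA10 the more upstream of its 2 listed starts is shown.
HOXA7, chr7:27156676-27156925, minus strand: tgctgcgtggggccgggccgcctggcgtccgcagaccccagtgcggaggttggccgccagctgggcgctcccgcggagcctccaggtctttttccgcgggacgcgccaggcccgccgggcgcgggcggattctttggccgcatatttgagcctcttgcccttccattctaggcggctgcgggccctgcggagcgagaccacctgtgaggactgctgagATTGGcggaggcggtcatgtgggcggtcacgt
HOXA9, chr7:27165538-27165787, minus strand: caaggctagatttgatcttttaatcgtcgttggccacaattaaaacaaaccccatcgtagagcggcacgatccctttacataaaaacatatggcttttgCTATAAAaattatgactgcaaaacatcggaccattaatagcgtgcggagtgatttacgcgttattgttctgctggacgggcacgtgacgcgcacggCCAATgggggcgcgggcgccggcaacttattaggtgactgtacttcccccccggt
HOXA10, chr7:27179862-27180111, minus strand: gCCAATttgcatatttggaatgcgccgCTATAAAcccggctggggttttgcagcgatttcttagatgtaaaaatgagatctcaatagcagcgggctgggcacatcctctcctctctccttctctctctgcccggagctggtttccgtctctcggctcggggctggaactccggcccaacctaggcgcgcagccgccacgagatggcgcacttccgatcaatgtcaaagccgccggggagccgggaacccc
HOXA13, chr7:27200092-27200341, minus strand: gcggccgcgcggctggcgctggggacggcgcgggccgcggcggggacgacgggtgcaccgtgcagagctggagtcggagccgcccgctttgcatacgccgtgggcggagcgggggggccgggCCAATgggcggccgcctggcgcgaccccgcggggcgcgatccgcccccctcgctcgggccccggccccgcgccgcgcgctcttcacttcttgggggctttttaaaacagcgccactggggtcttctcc
Each of the 4 windows held 1 CCAAT match, which 32.0% of all 35116 promoter windows of this length held. The windows shown for HOXA9 and HOXA10 also held 1 match each to TTTATNG, present in 8.93% of all windows. The window of the other HOXA10 start held 0 matches to TTTATNG. Over the 27 windows listed for 20 of the 39 genes, 18 held CCAAT and 7 held TTTATNG, while 2 held TGATTNAT, a motif of HOX with PBX, against 2.48% of all windows. The matches do not overlap in the windows shown and describe letters, not bound sites. The windows of HOXA7 and HOXA13 were rich in G and C (70.8% and 78.0%) with 28 and 40 CpG pairs, that of HOXA9 was 48.8% G and C with 20 CpG pairs, and the medians over all windows were 58.0% and 11 pairs.

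The clusters also carry microRNA genes, whose mature products repress HOX and other transcripts. The mature forms from the HOXB stretch (miR-10a and miR-196a) and from the HOXA stretch (miR-196b) are shown to place these loci, since reads on the 2 HOXB loci differed between the lines. Capitals mark the seed, bases 2 to 8.
hsa-miR-10a-5p: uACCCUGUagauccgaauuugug
hsa-miR-196a-5p: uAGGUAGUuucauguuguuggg
hsa-miR-196b-5p: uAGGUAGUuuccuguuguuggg
miR-196a-5p and miR-196b-5p share the seed AGGUAGU and differ by A12C, counted from the 5′ end with the base of miR-196a first. The library counts whole transcripts, so the values are reads on each locus and not the level of the mature form. MIR10A had 322 counts in DLD1 and 399 in HCT8 (6.29 and 7.58 CPM), 17 in HCT116, 3 in HIEC6 and 2 in NCM460. MIR196A1 had 385 counts in DLD1 and 501 in HCT8 against 57, 37 and 33 in HCT116, HIEC6 and NCM460. Both loci were thus highest in the 2 lines with the highest HOXB level. They lie on the same strand as the HOXB genes, so reads from HOXB transcripts that run over them cannot be told apart from their own. The shared order of lines is therefore not separate support, and the part of HOXB transcripts was not tested. MIR196B had at most 16 counts in any library and MIR10B had 0 in all 8.

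DLD1 and HCT8 carried the most HOX RNA and HIEC6 and HCT116 far less, with NCM460 the lowest. The 39 genes summed to 1492 CPM in DLD1, 1288 CPM in HCT8, 372 CPM in HCT116, 321 CPM in HIEC6 and 190.2 CPM in NCM460. Under hypoxia the sums were 1500 CPM in DLD1, 1535 CPM in HCT8 and 271 CPM in HCT116. HOXB3 alone gave 50.9% of the HOX counts in DLD1 and 52.1% in HCT8, and without it the sums were 733 CPM in DLD1, 617 CPM in HCT8, 317 CPM in HCT116, 309 CPM in HIEC6 and 175.8 CPM in NCM460, in the same order of lines. The number of members that were on did not follow the sum: it was 15 in HCT8, 25 in both DLD1 and HIEC6, and 26 in both HCT116 and NCM460. In these bulk libraries, fewer cells that use a gene and less RNA per cell cannot be told apart.

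**Figure D1:**
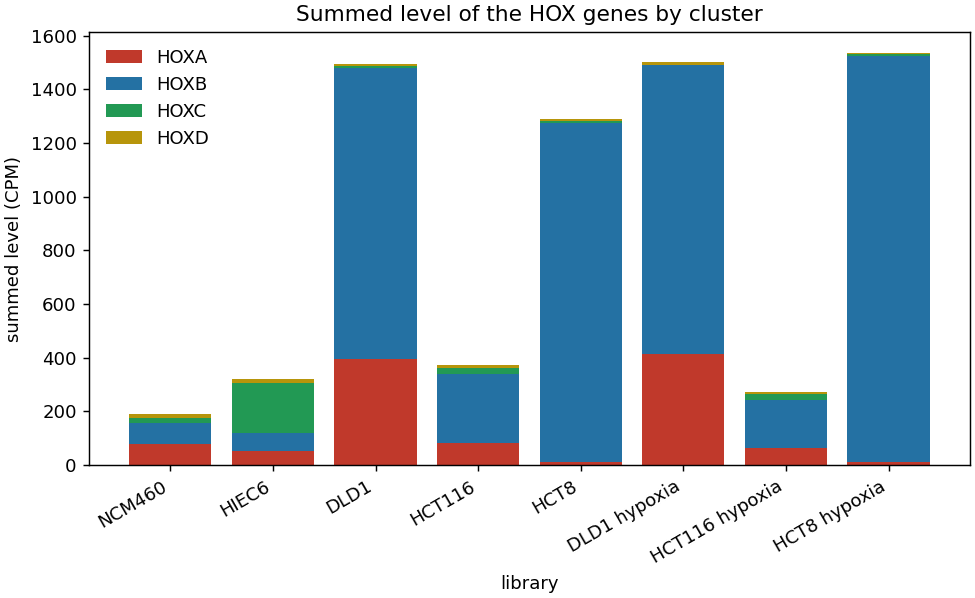
Summed level (CPM, from 0) of the HOXA, HOXB, HOXC and HOXD genes in each of the 8 libraries, stacked. HOXB makes up most of the bar in the CRC lines, HOXA is visible mainly in DLD1 (396 CPM untreated), and HOXC (187 CPM) is the largest piece in HIEC6.

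The lines differed in which cluster carried the reads. HOXB took 98.1% of the HOX counts of HCT8 (95% Wilson interval 98.0 to 98.2), 72.6% in DLD1 (72.3 to 72.9), 68.9% in HCT116 (68.2 to 69.5) and 41.5% in NCM460 (40.5 to 42.5). HIEC6 had 21.5% of its HOX counts in HOXB and 58.4% in HOXC (57.7 to 59.1), a cluster that held 0.404% and 0.544% of the HOX counts of DLD1 and HCT8. HOXA took 26.5% in DLD1, 22.2% in HCT116, 40.1% in NCM460, 15.8% in HIEC6 and 0.817% in HCT8. The Wilson intervals cover counting error within 1 library only, not the spread between cultures of a line. The HOXB share under hypoxia was 98.54% in HCT8, 71.58% in DLD1 and 66.14% in HCT116, outside the untreated interval of each line. HOXD stayed between 6.46 and 13.9 CPM in the 5 untreated lines. By position, posterior genes held 69.0% of the HOX counts of HIEC6, 45.4% in NCM460, 25.2% in HCT116, 23.3% in DLD1 and 5.13% in HCT8.

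Few members were used by every line. Of the 39 genes, 9 were on in all 5 untreated lines (HOXA3, HOXA10, HOXB3, HOXB5, HOXB6, HOXB7, HOXB9, HOXB13 and HOXC6), 7 in 4 lines, 12 in 3, 1 in 2 and 6 in 1. HOXB1, HOXC12, HOXD1 and HOXD12 were on in none. Of the members on in any line, 25.7% were on in all 5, against 66.7% of all genes on in any line. With levels under the floor of 3 counts set to the floor, the highest line exceeded the lowest by a median of 5.15 on the log2 scale over the 35 members on in any line, against 1.68 over 16817 genes. HOXB13, a posterior gene of prostate and distal gut, varied least (0.58) and HOXC13, known from hair and nail, varied most (10.15, HIEC6 over the floor in HCT8).

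**Figure D2:**
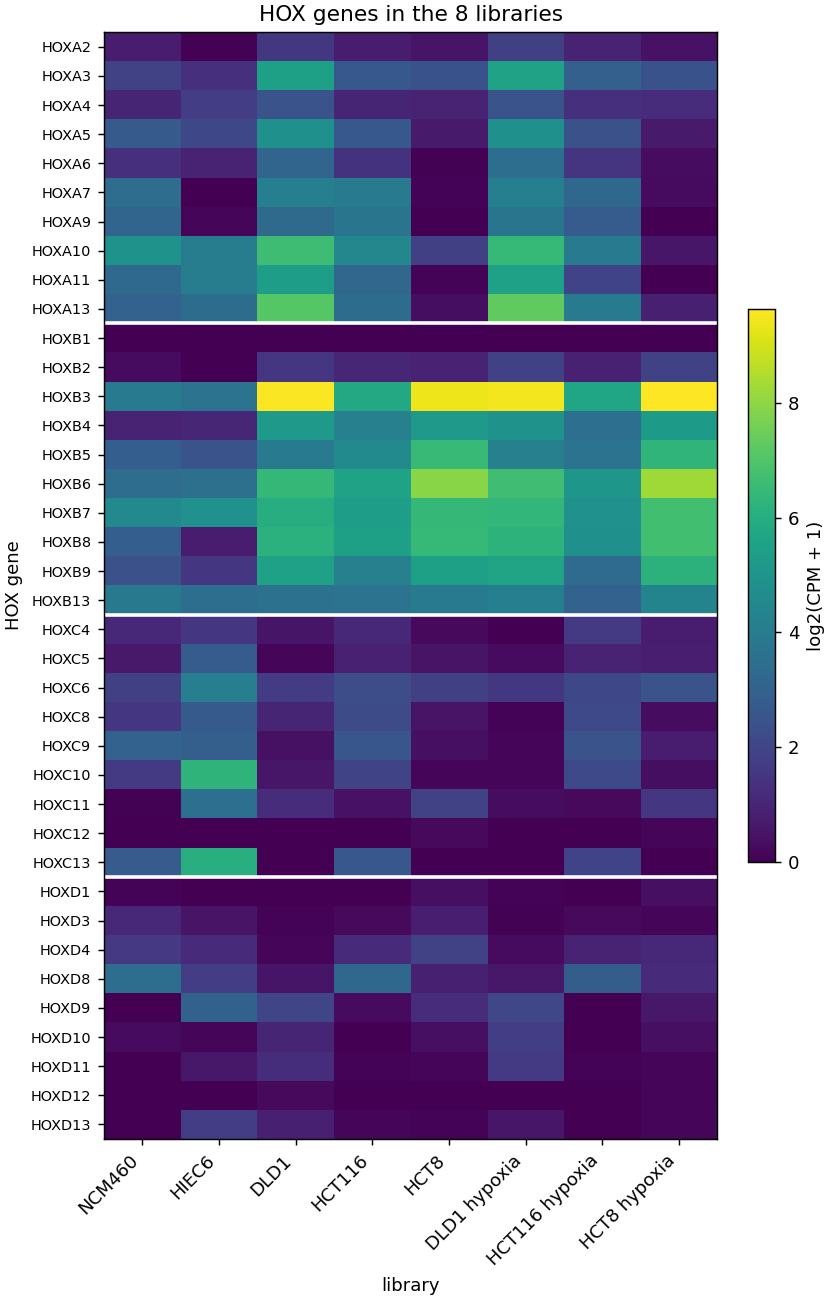
Level of the HOX genes apart from 1 HOXA gene (rows, grouped by cluster and ordered by paralog number) in the 8 libraries (columns), as log2(CPM + 1). The 2 libraries of each CRC line look alike, the HOXA rows are bright along their whole length in DLD1 and dark from HOXA5 on in HCT8, and HOXC10 and HOXC13 stand out in HIEC6.

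Along HOXA, DLD1 had every gene on, and HCT8 had 3 of 11. HOXA3, which patterns the pharyngeal arches, stood at 2.68 CPM in NCM460, 1.46 CPM in HIEC6, 43.2 CPM in DLD1, 5.23 CPM in HCT116 and 4.43 CPM in HCT8, and at 46.3, 6.68 and 4.33 CPM in the 3 CRC lines under hypoxia. It was highest in the 2 DLD1 libraries. HOXA2 and HOXA4 stayed at or under 4.51 CPM in all libraries.

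The central genes of HOXA were all under 1 CPM in untreated HCT8. HOXA5, a gene of lung and gut development, stood at 5.67 CPM in NCM460, 3.30 CPM in HIEC6, 27.8 CPM in DLD1, 5.36 CPM in HCT116 and 0.608 CPM in HCT8, and at 27.7, 4.28 and 0.615 CPM under hypoxia in DLD1, HCT116 and HCT8. HOXA6 stood at 1.46 CPM in NCM460, 0.935 CPM in HIEC6, 7.87 CPM in DLD1, 1.67 CPM in HCT116 and 0.0380 CPM (2 counts) in HCT8, with 10.2, 1.81 and 0.264 CPM under hypoxia. HOXA7 stood at 9.96 CPM in NCM460, 16.9 CPM in DLD1 and 14.7 CPM in HCT116, with 0 counts in HIEC6 and 3 counts in HCT8, and under hypoxia at 17.0 and 8.63 CPM in DLD1 and HCT116 and 10 counts in HCT8. HOXA7 was thus on in NCM460, DLD1 and HCT116 and at or under the floor of 3 counts in the other untreated lines.

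The posterior genes of HOXA were far lower in HCT8 than in DLD1. HOXA9, a gene of blood stem cells and a known oncogene there, had 464 counts in DLD1, 649 counts in HCT116 and 1 count in HCT8, with 386 counts in NCM460 and 6 in HIEC6, and 701, 331 and 1 counts in the CRC lines under hypoxia. HOXA10, best known from the uterus, stood at 29.1 CPM in NCM460, 16.1 CPM in HIEC6, 98.7 CPM in DLD1, 21.2 CPM in HCT116 and 2.56 CPM in HCT8, and at 86.0, 14.4 and 0.483 CPM under hypoxia. It was the one posterior HOXA gene above 1 CPM in untreated HCT8. HOXA11 stood at 8.80 CPM in NCM460, 16.0 CPM in HIEC6, 40.5 CPM in DLD1 and 7.94 CPM in HCT116 with 3 counts in HCT8, and under hypoxia at 44.6 and 2.83 CPM in DLD1 and HCT116 with 1 count in HCT8. HOXA13, the last gene of the cluster and a marker of the hindgut and genital region, stood at 7.08 CPM in NCM460, 9.50 CPM in HIEC6, 136 CPM in DLD1, 9.55 CPM in HCT116 and 0.266 CPM in HCT8, and at 153, 15.0 and 0.791 CPM under hypoxia. DLD1 was the highest untreated line for HOXA10, HOXA11 and HOXA13, and HCT116 for HOXA9. Per kilobase of exon, HOXA13 and HOXA10 were equally abundant in DLD1, at 26.9 and 26.6 CPM per kilobase.

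**Figure D3:**
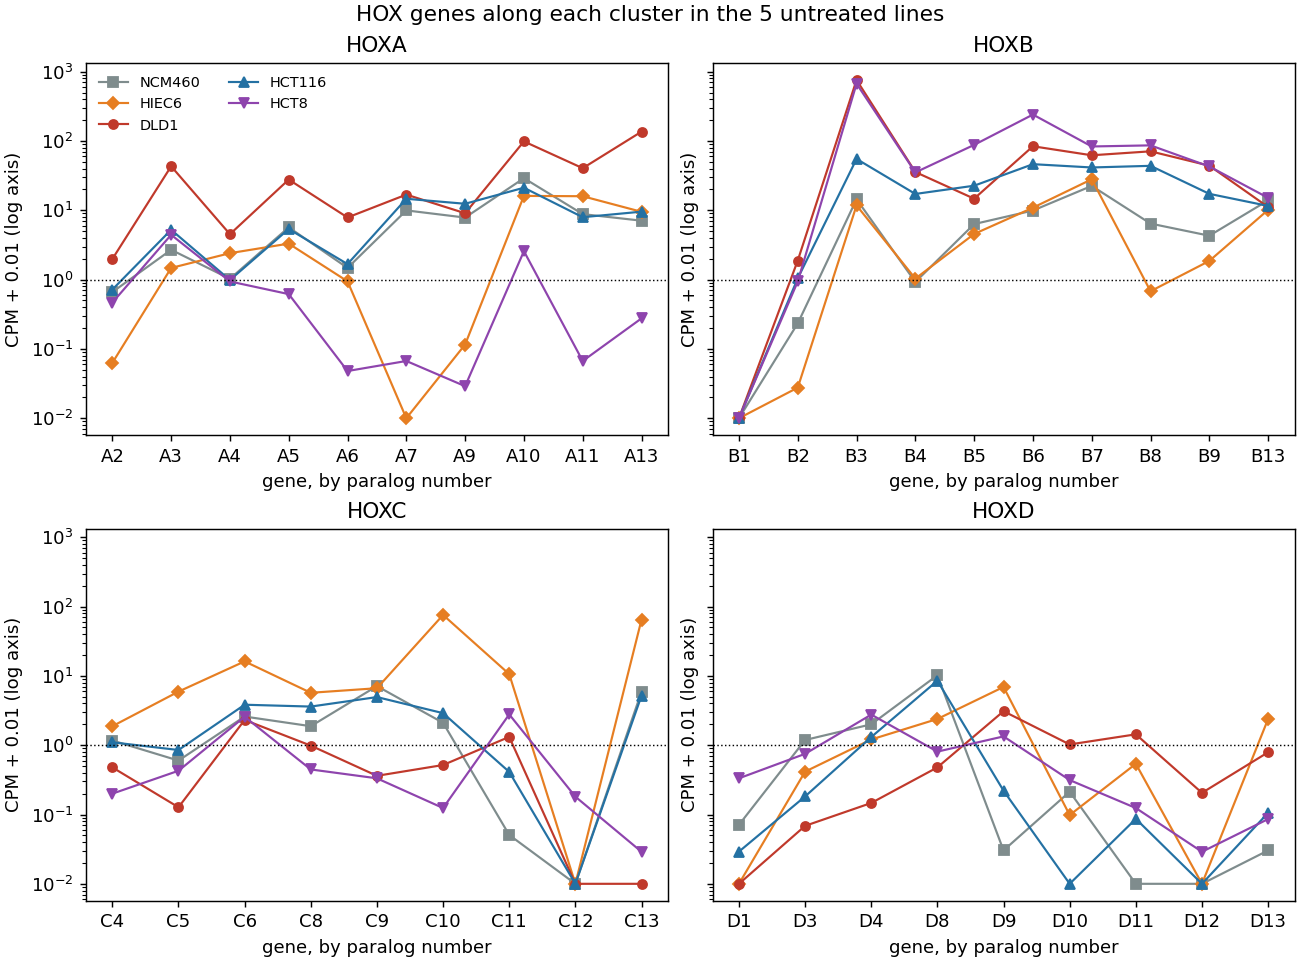
Level of the HOX genes apart from 1 HOXA gene (CPM + 0.01, log axis) along the 4 clusters, by paralog number, in the 5 untreated lines; the dotted line is 1 CPM. In HOXA, HCT8 drops below 1 CPM from HOXA4 on apart from HOXA10, and HIEC6 drops at HOXA7 and HOXA9 and returns at HOXA10; in HOXB the CRC lines lie above both normal lines from HOXB2 to HOXB9 and all lines meet at HOXB13.

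HOXB was on from HOXB3 to HOXB13 in all 3 CRC lines. HOXB3, an anterior gene of the hindbrain and gut, stood at 14.4 CPM in NCM460, 11.8 CPM in HIEC6, 759 CPM in DLD1, 55.1 CPM in HCT116 and 672 CPM in HCT8, and at 702, 50.5 and 792 CPM in DLD1, HCT116 and HCT8 under hypoxia. DLD1 and HCT8 thus stood more than 10-fold above HCT116 in each library. It shares 6.42% of its exon length with HOXB4 and HOXB6. HOXB4, a gene of blood stem cell expansion, stood at 0.915 CPM in NCM460, 1.02 CPM in HIEC6, 35.7 CPM in DLD1, 17.2 CPM in HCT116 and 35.2 CPM in HCT8, and at 29.4, 10.6 and 36.7 CPM under hypoxia. HOXB5, which acts in lung and enteric nerve development, stood at 6.32 CPM in NCM460, 4.55 CPM in HIEC6, 14.7 CPM in DLD1, 22.6 CPM in HCT116 and 87.9 CPM in HCT8, and at 17.5, 11.7 and 77.9 CPM under hypoxia. For each of HOXB3, HOXB4 and HOXB5 the 6 CRC libraries all lay above both normal libraries.

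HOXB6 stood at 9.92 CPM in NCM460, 10.9 CPM in HIEC6, 84.0 CPM in DLD1, 46.3 CPM in HCT116 and 241 CPM in HCT8, and at 103, 33.5 and 306 CPM under hypoxia. HOXB7 stood at 22.5 CPM in NCM460, 28.0 CPM in HIEC6, 62.2 CPM in DLD1, 41.5 CPM in HCT116 and 83.4 CPM in HCT8, and at 81.6, 28.3 and 103 CPM under hypoxia, so that the HCT116 hypoxia library and HIEC6 lay side by side. Both genes were highest in HCT8, and HOXB7 spread less between the lines than HOXB6. Per kilobase of exon, HOXB6 and HOXB3 were at the same level in HCT8 (92.5 and 90.5 CPM per kilobase), while HOXB3 led in DLD1 (102, followed by HOXB7 at 40.9), HOXB7 led in HCT116 (27.3), and HOXB7 led all genes in NCM460 (14.8). HOXB3, HOXB6 or HOXB7 thus led in these lines per kilobase. HOXB8 stood at 6.42 CPM in NCM460, 0.670 CPM in HIEC6, 71.0 CPM in DLD1, 43.8 CPM in HCT116 and 86.5 CPM in HCT8, and at 73.8, 27.6 and 104 CPM under hypoxia. HOXB9 stood at 4.29 CPM in NCM460, 1.85 CPM in HIEC6, 44.03 CPM in DLD1, 17.3 CPM in HCT116 and 42.9 CPM in HCT8, and at 47.8, 9.30 and 72.0 CPM under hypoxia. For HOXB8 and HOXB9, DLD1 and HCT8 were highest, HCT116 lay below them and HIEC6 was lowest. HOXB13 stood at 13.9 CPM in NCM460, 10.1 CPM in HIEC6, 11.1 CPM in DLD1, 11.6 CPM in HCT116 and 15.1 CPM in HCT8, and at 16.9, 7.13 and 19.2 CPM under hypoxia, with no separation between the lines. HOXB2 reached 2.77 CPM at most and HOXB1 had 0 counts in all 8 libraries. By counting error alone this allows up to 0.0659 CPM in the shallowest library. RING1 was also at 0 in all 8, so a loss of HOXB1 reads in the counting is not bounded by this value.

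HOXC was the cluster of HIEC6, which had the highest level of 7 of the 8 HOXC genes that were on in any line. HOXC6 stood at 2.58 CPM in NCM460, 16.2 CPM in HIEC6, 2.30 CPM in DLD1, 3.83 CPM in HCT116 and 2.56 CPM in HCT8, and at 1.97, 3.30 and 4.48 CPM under hypoxia. HOXC10, a gene of limb and lower trunk patterning, stood at 2.09 CPM in NCM460, 75.7 CPM in HIEC6, 0.508 CPM in DLD1, 2.89 CPM in HCT116 and 0.114 CPM in HCT8, and at 0.122, 3.39 and 0.286 CPM under hypoxia. Both genes were highest in HIEC6, and for HOXC10 the other lines were low in every library. HOXC11 had 601 counts in HIEC6 and 2 counts in NCM460, against 67, 21 and 146 counts in DLD1, HCT116 and HCT8, and 14, 10 and 85 counts in these lines under hypoxia. HOXC13 had 3671 counts in HIEC6 and 289 counts in NCM460, against 0, 270 and 1 counts in DLD1, HCT116 and HCT8, and 0, 157 and 0 counts in these lines under hypoxia. The lines fell into 3 levels for HOXC13, with HIEC6 above NCM460 and HCT116 and those above DLD1 and HCT8. HOXC4, HOXC5, HOXC8 and HOXC9 stayed between 1 count (HOXC4 in DLD1 under hypoxia) and 7.12 CPM (HOXC9 in NCM460), and HOXC12 was seen in HCT8 alone, at 9 counts untreated and 6 under hypoxia.

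HOXD was low in every line, and the lines used different stretches of it. HOXD8, the one member of this cluster above 10 CPM in any library, stood at 10.2 CPM in NCM460, 2.38 CPM in HIEC6, 0.469 CPM in DLD1, 8.52 CPM in HCT116 and 0.798 CPM in HCT8, and at 0.540, 6.14 and 1.30 CPM under hypoxia. It gave 74.6% of the HOXD counts in NCM460 and 82.0% in HCT116. HOXD9 was instead the leading HOXD gene in HIEC6 (49.7% of the HOXD counts) and in DLD1 (43.1%), at 6.91 and 3.09 CPM, against 1 count in NCM460 and 11 in HCT116. HOXD4 led in HCT8 (145 counts, 42.6%). The posterior genes HOXD10 and HOXD11 were on in DLD1 alone among the untreated lines (52 and 73 counts), where the anterior HOXD3 had 3 counts, and HOXD13 was on in HIEC6 alone (135 counts).

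The CRC lines were then compared with each other, with both libraries of a line standing for it and a term for hypoxia, by the quasi-likelihood test of edgeR, with p adjusted by the method of Benjamini and Hochberg and a threshold of 0.05. Of the 36 members tested, 29 (80.6%) differed between the 3 lines, where 39% of all 21045 genes tested did (22.3% to 50.4% with each CRC library left out). All 11 HOXA genes passed, with 7 of 9 HOXB, 6 of 8 HOXC and 5 of 8 HOXD genes tested, and HOXB2, HOXB13, HOXC4, HOXC6, HOXD1, HOXD3 and HOXD13 did not. HOXB1, HOXC12 and HOXD12 had too few counts to be tested. The 2 libraries of a line differ in treatment, so the spread within lines has 2 residual degrees of freedom, and with 1 culture per line and treatment the p-values cover the spread between these libraries.

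DLD1 and HCT8 differed throughout HOXA, and few members of the other clusters were called. In this pair 15 members were called, 12 higher in DLD1 and 3 lower, against 15.7% of all genes (4.6% to 33.9% with each CRC library left out in turn, and 10 to 19 members). All 11 HOXA genes were higher in DLD1, by a log2 fold change of 2.17 (SE 0.50, adjusted p = 0.0231) for HOXA4, 5.65 (SE 0.35, adjusted p = 6.96e-05) for HOXA5, 6.26 (SE 0.57, adjusted p = 0.000308) for HOXA10 and 8.38 (SE 0.42, adjusted p = 4.95e-05) for HOXA13. For genes with a handful of counts in HCT8 the ratio of pooled CPM is given with its counting interval: 527-fold (146 to 4354) for HOXA9 and 1047-fold (409 to 3846) for HOXA11. HOXB5 (log2 fold change -2.20, SE 0.28) and HOXB6 (-1.40, SE 0.22) were lower in DLD1, and so was HOXD4 (-3.19, SE 0.74), while HOXD11 was higher (3.95, SE 0.76). The other 7 HOXB genes tested did not pass, with log2 fold changes from -0.25 to 0.62, and no HOXC gene passed. Across the 28 members outside HOXA the untreated profiles of DLD1 and HCT8 correlated at r = 0.963 on log2(CPM + 1), and across the 11 HOXA genes at 0.296, which describes 2 libraries over genes of shared clusters.

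DLD1 and HCT116 differed in 24 members, 17 higher in DLD1 and 7 lower, against 32.0% of all genes (14.6% to 38.3% with each CRC library left out). Of the HOXA genes 8 were higher in DLD1, with HOXA13 at a log2 fold change of 3.40 (SE 0.32, adjusted p = 0.000151), while HOXA7 (0.35, SE 0.40) and HOXA9 (0.07, SE 0.39) did not pass. HOXB3 differed by 3.58 (SE 0.23, adjusted p = 2.26e-05), and HOXB4, HOXB6, HOXB7, HOXB8 and HOXB9 by 0.83 to 1.60, all higher in DLD1. HOXC5, HOXC8, HOXC9 and HOXC10 were lower in DLD1, with log2 fold changes from -4.60 to -2.71, and HOXC13, at 0 counts in both DLD1 libraries, was at least 72.2-fold lower. HOXD turned at its middle: HOXD4 (-2.84, SE 0.72) and HOXD8 (-4.07, SE 0.49) were lower in DLD1, whereas HOXD9 (4.91, SE 0.83) and HOXD11 (4.48, SE 0.80) were higher and HOXD10 was at least 30.7-fold higher. Without the DLD1 hypoxia library 11 members and 14.6% of all genes passed.

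HCT116 and HCT8 differed in 23 members, 13 higher in HCT116 and 10 lower, against 27.0% of all genes (10.7% to 34.8% with each CRC library left out). The 2 largest clusters moved in opposite directions: 8 HOXA genes were higher in HCT116 and none lower, and 7 HOXB genes were lower in HCT116 and none higher. HOXA5 differed by 3.33 (SE 0.32) and HOXA13 by 4.98 (SE 0.38, adjusted p = 5.36e-05), and pooled CPM of HOXA9 was 447-fold higher (counting interval 123 to 3695). HOXB3 differed by -3.42 (SE 0.23, adjusted p = 3.51e-05), HOXB6 by -2.41 (SE 0.23) and HOXB4, HOXB5, HOXB7, HOXB8 and HOXB9 by -1.04 to -1.96. HOXC8, HOXC9, HOXC10 and HOXC13 were higher in HCT116 and HOXC11 lower (-2.74, SE 0.71). Without the untreated HCT8 library 13 members passed, and without the HCT8 hypoxia library 15.

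Against the normal lines, all 3 untreated CRC lines had higher values of HOXB2 to HOXB9, but no member was called. The CRC lines also had lower values of 3 HOXC genes, with HCT116 close to NCM460 in HOXC4 and HOXC13. None of the 35 members tested passed edgeR's test on the 5 untreated libraries, nor did any of the 19964 genes tested (0%), with a common coefficient of variation of 0.868. Without NCM460 again 0 members passed. At an unadjusted p under 0.05 there were 9 members and 542 of the 19964 genes, DESeq2 called 5 (HOXB3, HOXB4, HOXB6, HOXB8 and HOXB9) among 143 genes and limma-trend 0. HOXB4 had the smallest p (log2 fold change 4.71, SE 0.60, unadjusted p = 0.000442, adjusted p = 0.999), with 29.4 ± 10.5 CPM (SD, n = 3) in the CRC lines and 0.969 ± 0.0763 CPM (SD, n = 2) in the normal lines. HOXB9 followed (3.33, SE 0.68, unadjusted p = 0.00403), with 34.7 ± 15.1 CPM (SD, n = 3) and 3.07 ± 1.72 CPM (SD, n = 2). All 3 CRC lines lay above both normal lines for 9 of the 35 members, the 8 genes HOXB2 to HOXB9 and HOXA3, where this held for 13.2% of the genes tested. All 3 lay below both for HOXC4, HOXC9 and HOXC13, where this held for 4.99%. For HOXC4, HCT116 and NCM460 had 57 counts each (1.09 and 1.16 CPM), and for HOXC13 they had 270 and 289. Under hypoxia HOXC4 stood at 2.08 CPM in HCT116, above both normal lines. The median log2 fold change was 0.77 over the members and -0.0048 over all genes, and by cluster it was 1.19 in HOXA, 3.33 in HOXB, -2.07 in HOXC and -1.03 in HOXD.

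HIEC6 had a low HOXB and a high HOXC cluster. The single HIEC6 library was set against the mean of the 3 CRC lines, on the assumption that it varies as the paired CRC libraries do, and 20 members were called, 9 higher and 11 lower in HIEC6, against 25.6% of all genes (15.6% to 39.5% with each other library left out). In HOXB, 7 of 9 genes were lower: HOXB3 by a log2 fold change of -4.40 (SE 0.32, adjusted p = 4.99e-05), HOXB4 by -4.47 (SE 0.40), HOXB8 by -6.30 (SE 0.42, adjusted p = 3.26e-05), and HOXB2, with 1 count in HIEC6, whose pooled CPM was 95.4-fold lower (counting interval 17.1 to 3776). HOXB7 (-0.81, SE 0.29) and HOXB13 (-0.02, SE 0.37) did not pass. In HOXC, 6 of 8 genes were higher and none lower, among them HOXC6 (2.80, SE 0.42), HOXC10 (7.28, SE 0.60, adjusted p = 8.85e-05), HOXC11 (3.48, SE 0.57) and HOXC13, for which no fold is given because DLD1 and HCT8 were at 1 count or 0. HOXA split within the cluster: HOXA2, HOXA3, HOXA7 and HOXA9 were lower than the mean of the CRC lines, and HOXA11 was higher (2.92, SE 0.42). These contrasts did not hold against each line. HOXA11 stood at 16.0 CPM in HIEC6, under 40.5 and 44.6 CPM in DLD1, while HCT8 had 3 counts untreated and 1 under hypoxia. HOXA9 had 6 counts in HIEC6 and 1 in each HCT8 library. HOXA7, at 0 counts in HIEC6, lay at least 181-fold under the mean CPM of the 6 CRC libraries. DLD1 and HCT116 carried that mean, and HCT8 had 3 counts untreated and 10 under hypoxia. HOXD9 and HOXD13 were higher. The epithelial markers moved with these genes: 5 of 10 were lower and 1 higher in HIEC6, and 5 of 9 mesenchymal markers tested were higher and none lower. The summed mesenchymal level was 1402 CPM in HIEC6, of which VIM gave 1223 CPM, and 11.7 to 168 CPM in the 6 CRC libraries. The summed epithelial level was 8019 CPM in HIEC6, most of it from KRT8 (4290 CPM) and KRT18 (3725 CPM). In the CRC libraries it ran from 4551 to 14080 CPM, so the epithelial sum did not set HIEC6 apart. The part of cell type in the HOX values was not tested.

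**Figure D4:**
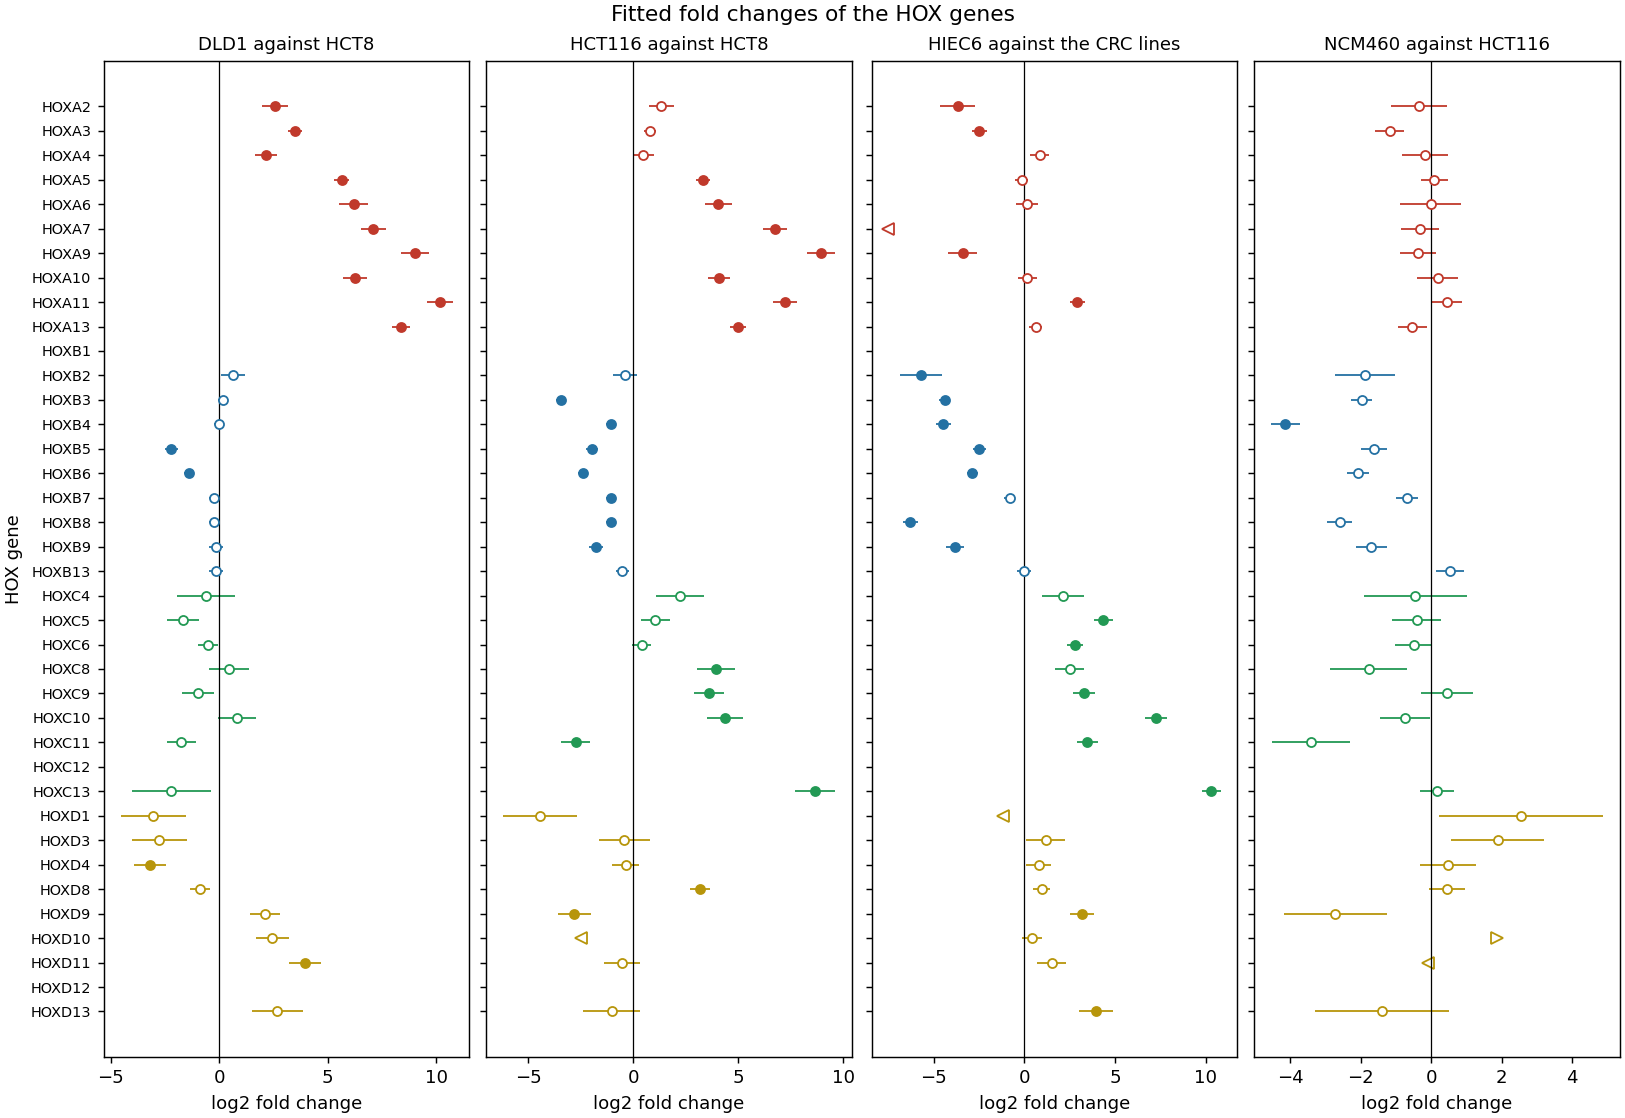
Fitted log2 fold change with its standard error for the HOX genes tested apart from 1 HOXA gene, in 4 comparisons; filled points passed an adjusted p of 0.05, and triangles mark genes at 0 counts on one side, drawn at the lower bound of the change. HOXA lies right of 0 in both comparisons with HCT8, HOXB lies left and HOXC right in HIEC6, and in NCM460 HOXB4 alone passed.

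NCM460 and HCT116 differed by the test in 1 HOX gene, HOXB4. Over all 39 members their untreated profiles correlated at r = 0.883, over HOXA at 0.958, over HOXC at 0.945, over HOXD at 0.958 and over HOXB at 0.827, a description across genes of 2 libraries. Over HOXB, NCM460 was closer to HIEC6 (r = 0.911), whereas with HIEC6 r was 0.547 over HOXA, 0.5475 over HOXC and 0.223 over HOXD. Of the 10 HOXB genes, NCM460 lay below both HCT116 libraries for 8 and above both for 1. With the same assumption for the single library, 1 member was called, HOXB4 (log2 fold change -4.13, SE 0.41, adjusted p = 0.0312), with 45 counts in NCM460 and 899 and 586 in HCT116, against 0.0647% of all genes (14 of 21647). HOXB8 (-2.60, SE 0.34, adjusted p = 0.0649), HOXB3 (-1.97, SE 0.30, adjusted p = 0.0990) and HOXB6 (-2.07, SE 0.31, adjusted p = 0.0990) did not pass. The call moved with the libraries: 0 members passed without either HCT8 library, 4 without untreated HCT116 and 6 without HCT116 under hypoxia. DESeq2 called 5 members, HOXB3, HOXB4, HOXB5, HOXB6 and HOXB8, among 133 genes. The description of NCM460 carried 2 codes, 1 of them shared with the hypoxia libraries of DLD1 and HCT116, and their part in these values was not tested.

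Hypoxia moved no member past the threshold. On the 6 CRC libraries edgeR called 0 of 36 members and 0 of 21045 genes (0%), with 0 members at an unadjusted p under 0.05, and DESeq2 and limma-trend also called 0 members. With the line as a block, which pairs the libraries of a line, 0.95% of all genes were called (200) and again no member. HOXA13 had the smallest p in that fit (log2 fold change 0.79, SE 0.27, unadjusted p = 0.0172, adjusted p = 0.176) and was higher under hypoxia in 3 of 3 lines. HOXC11 followed (-1.22, SE 0.57, adjusted p = 0.298), lower in 3 of 3. The hypoxia libraries did carry a response, with CA9 and NDRG1 among the 2 of 5 hypoxia genes called in the blocked fit.

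Within each line the HOX profile as a whole stayed close under hypoxia, while single members moved further. The r between the untreated and the hypoxia library, over the 39 members, was 0.992 (DLD1), 0.978 for the HCT116 pair and 0.987 for the HCT8 pair, against 0.687 to 0.819 between untreated libraries of different CRC lines. Among members at 10 CPM or more in either library of a line, the log2 difference ran from -0.28 to 0.60 over 17 genes in DLD1, from -1.06 to 0.65 over 12 in HCT116 and from -0.17 to 0.75 over 8 in HCT8. Of the members with more than 3 counts in both libraries, 27 of 32 differed by less than 1 in DLD1, 28 of 31 in HCT116 and 23 of 32 in HCT8. Members on in only 1 of the 2 libraries numbered 1 in DLD1, 3 in HCT116 and 6 in HCT8. These differences are on CPM by total count. The TMM factors of HCT116 were 1.011 untreated and 0.790 under hypoxia. TMM scaling therefore shifts every signed HCT116 log2 difference upward by the same amount, so the larger falls become smaller. The summed HOX level of HCT116 went from 372.3 to 271.3 CPM by total count, and from 368.3 to 343.5 CPM with TMM scaling. In HCT8, HOXA10 went from 135 to 22 counts (log2 difference -2.41) and HOXD4 from 145 to 49 (-1.355). In HCT116, HOXA11 went from 415 to 157 counts (-1.49). Each of these differences is between single libraries and has no replicate check.

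**Figure D5:**
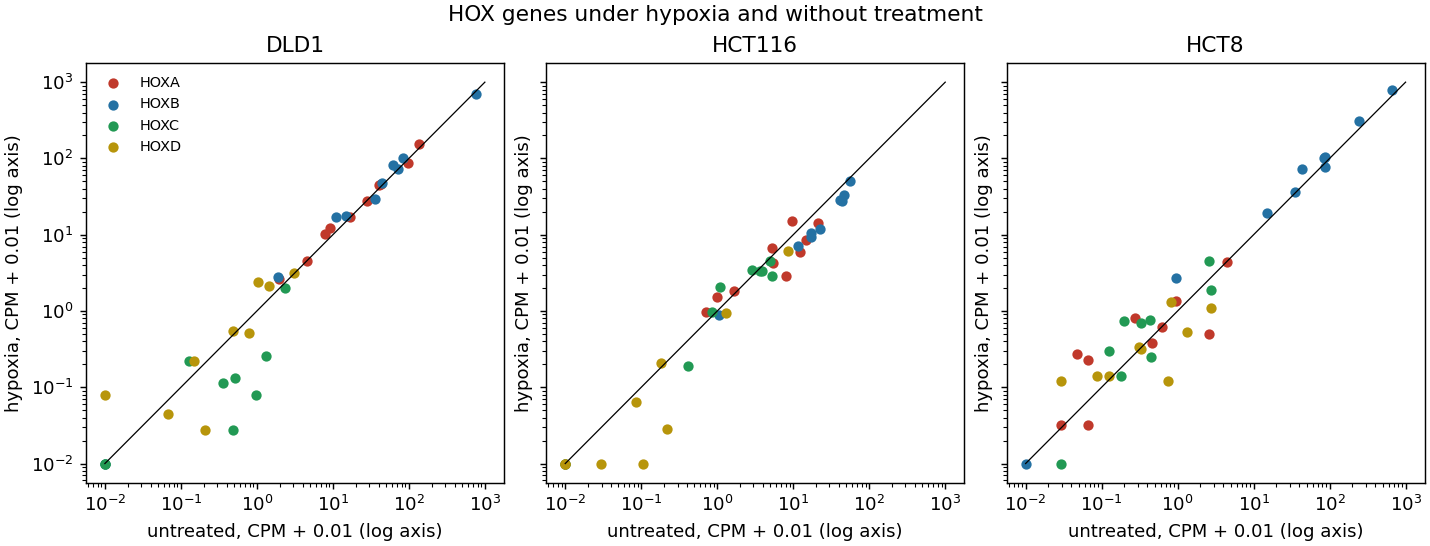
Level of the HOX genes apart from 1 HOXA gene under hypoxia against its level without treatment in DLD1, HCT116 and HCT8 (CPM + 0.01, log axes), coloured by cluster; the line marks equal levels. Genes above 10 CPM lie close to the line in all 3 CRC lines, and the scatter widens below 1 CPM.

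Genes that act with the HOX proteins also differed between the CRC lines. Of the cofactors and partners, 7 of 10 tested passed the test over the 3 lines, where 39% of all genes did. MEIS2, a partner of PBX and HOX proteins, stood at 9.88 CPM in DLD1 and 12.0 CPM in HCT116 with 0 counts in untreated HCT8, and MEIS3 at 0.176 CPM in DLD1 against 25.3 CPM in HCT116 and 33.6 CPM in HCT8. Of these 2 partners, MEIS3 was thus near 0 in DLD1 and MEIS2 in HCT8, while others of the list were near 0 in both lines.

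Of the factors that mark position along the gut, 10 of 12 tested passed the test over the 3 lines, where 39% of all genes did. Between DLD1 and HCT116, 11 differed, 9 higher and 2 lower in DLD1, against 32.0% of all genes. CDX2, which binds HOX clusters and sets hindgut identity, stood at 163 CPM in DLD1, 295 CPM in HCT8, 19.3 CPM in HCT116, 19.9 CPM in NCM460 and 0.0529 CPM in HIEC6. GATA6, an endodermal factor, stood at 87.1, 127, 8.88, 7.34 and 7.14 CPM in the same order. Both genes were highest in DLD1 and HCT8, the lines with the highest HOXB level, while HOXA separated those lines. FOXF2, a gene of gut mesenchyme, stood at 23.7 CPM in HIEC6 and at 1 count or 0 in the other untreated lines.

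Of the long noncoding RNAs of the clusters, 8 of 12 tested passed the test over the 3 lines, where 39% of all genes did. HOTTIP, which is transcribed from the posterior tip of HOXA next to HOXA13, stood at 53.5 CPM in DLD1 and 57.8 CPM in DLD1 under hypoxia, at 0.688 CPM at most in the other untreated lines and at 0 counts in untreated HCT8. It differed between DLD1 and HCT116 by a log2 fold change of 6.93 (SE 0.42, adjusted p = 1.68e-05). HOXB-AS3 stood at 36.3 CPM in DLD1, 6.74 CPM in HCT8 and at 0.142 CPM at most in the other untreated lines, and HAGLR, opposite HOXD1, at 11.3 CPM in HCT8 and 2.21 CPM in DLD1. The counting strand is not given in the sources used here, so reads of a gene and its antisense partner cannot be told apart: 62.5% of the exon length of HOXA7 lies opposite HOXA-AS3 and 60.1% of that of HOXD1 opposite HAGLR.

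Of the upstream and chromatin regulators, 8 of 19 tested passed the test over the 3 lines, and 7 of 17 flanking genes did, near the 39% of all genes. Between DLD1 and HCT8, 1 of 19 regulators and 3 of 17 flanking genes were called, against 15.7% of all genes.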

How the data were processed

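The deposited table held raw counts per gene for 54261 genes in 8 libraries. According to the methods, the authors removed ribosomal RNA with RiboMinus, sequenced on an Illumina HiSeq and aligned the reads to GRCh37.p13, whereas the submitters' processing notes list HISAT2 2.0.4 and GRCh38; the counter, its annotation, the use of strand and the handling of reads with several matches are not given in the sources used here. Gene positions and exon lengths were taken from GENCODE release 44 lifted to GRCh37, and sequences from RefSeq on GRCh38.p14, whose promoter table listed 20 of the 39 genes.

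Genes that reached 10 counts in 2 or more libraries were tested with edgeR 4.0.16 (TMM scaling, quasi-likelihood test, Benjamini-Hochberg adjustment over all genes tested, threshold 0.05) in R 4.3.3. CRC and normal lines were set against each other on the 5 untreated libraries, and hypoxia and untreated cultures on the 6 CRC libraries. Differences between lines used both libraries of each CRC line with a treatment term, and single-library lines were added to that fit. DESeq2 1.42.0, limma-trend 3.58.1, another scaling, other filters, a line block and leaving out each library were alternatives. Deviations from the group means correlated at 0.820 to 0.857 between libraries of the same line and at -0.611 to -0.0599 otherwise, and the labels name the same line, so the line number pairs them.

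The HOX genes and the gene lists were chosen with earlier results of these data known. Members at 10 CPM or more in at least 1 library are given in every library, apart from 1 HOXA gene that, with 2 genes of the other lists, is not reported here. It counts in sums and totals. Fitted changes are given for members past the threshold and, where none passed, for the 2 with the smallest p. Values of members that missed it elsewhere were added after they were seen. Genes of the cofactor, regulator, position, noncoding RNA and flanking lists could be named at 10 CPM or more with a highest untreated line at least 4-fold above the lowest. The microRNA loci, RING1, CA9, NDRG1 and the cell type markers named were chosen after their values were seen. The fits were tested on simulated data.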

Additional observations from a re-analysis of the deposited data

Results flagged for a closer look

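HOXC9 and HOXC10 moved in opposite directions under hypoxia in different CRC lines. The log2 difference of hypoxia over untreated was -1.749 in DLD1 and 1.077 in HCT8 for HOXC9, and -2.057 in DLD1 and 1.326 in HCT8 for HOXC10. The counts behind these values were low: HOXC9 went from 18 to 6 counts in DLD1 and from 17 to 31 in HCT8, and HOXC10 went from 26 to 7 and from 6 to 13. Each value compares 1 library with 1 library, and the difference between the lines was not tested.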

How the results depend on the processing

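Of the fitted values of single HOX genes recomputed under each alternative, none changed direction. Calls were lost in 77 cases with a library left out, in 10 without the treatment term and in 1 with at least 10 counts required in every library. Counts of HOX genes called moved as follows. DESeq2 called 5 members for CRC against normal lines and 5 for NCM460 against HCT116. With at least 10 counts required in every library, which leaves fewer HOX genes to test, 16 members differed between the CRC lines, 13 between DLD1 and HCT116, 9 between DLD1 and HCT8, 13 between HCT116 and HCT8, 9 between HIEC6 and the CRC lines and 0 between NCM460 and HCT116. For NCM460 against HCT116, 6 members passed with no filter and 0 without the treatment term; the cause was not tested.

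Leaving out each library in turn gave 0 members for CRC against normal lines and for hypoxia, 21 to 28 between the CRC lines, 11 to 22 for DLD1 against HCT116, 10 to 19 for DLD1 against HCT8, 13 to 24 for HCT116 against HCT8, 17 to 23 for HIEC6 and 0 to 6 for NCM460. Without NCM460, 10 members were on in every untreated line. With the replicate number as a block, 0 members were called for CRC against normal lines, whose lines share only a number, and 0 for hypoxia, whose block is the line.

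The number of members on was 18 in NCM460 at 1 CPM per kilobase and 22 in HCT8 under hypoxia at 0.5 CPM. The summed HOX level with TMM scaling was 366.6 CPM in HIEC6, 1424 in DLD1, 1114 in HCT8, and under hypoxia 343.5 in HCT116, 1336 in HCT8 and 1463 in DLD1. With the 10 largest genes left out of the library sizes it was 1579 CPM in DLD1, 1372 CPM in HCT8, 407.3 CPM in HCT116, 345.4 CPM in HIEC6 and 207.2 CPM in NCM460, and under hypoxia 1598 in DLD1, 309.9 in HCT116 and 1650 in HCT8. At 3 counts or fewer a gene cannot be told from 0.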
